A study of Mus musculus with 66 samples.

Results

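The mucosa of the mid-colon was compared between uninjured mice (day 0) and mice killed on day 9 of a dextran sulfate sodium (DSS) course. The comparison holds 7 of the 66 bulk RNA samples in the series, 4 from day 0 and 3 from day 9, taken as the samples whose column in the deposited table carries the mid-colon tag and either day. All were wild-type C57Bl/6 mice bought from Jackson Laboratory at 6 weeks of age. The day 0 mice, numbered 1 to 4, had received no DSS. The day 9 mice, numbered 11 to 13, had received 3% DSS for 6 days from day 0 and were killed 3 days after it ended. The labels do not state how the DSS was given. Each mouse gave 1 mid-colon sample, the muscle layer was discarded, and what remained is a mixture of epithelium, lamina propria and any cells that had entered them. Groups can therefore differ in cell composition as well as in RNA per cell, and in bulk tissue fewer cells of a type and less RNA per cell cannot be told apart. The labels give neither the sex of the mice nor a library batch.

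DSS is toxic to the colonic epithelium and opens the mucosa to luminal bacteria. Withdrawal is followed by a phase in which neutrophils and monocytes occupy the damaged lamina propria while surviving crypt cells divide and re-cover the surface. In the uninjured colon, stem cells at the crypt base give rise to dividing progenitors, which mature on the way up into absorptive colonocytes, mucus-secreting goblet cells, hormone-secreting enteroendocrine cells and sensory tuft cells. Colonocytes take up salt, water, calcium and short-chain fatty acids, oxidise those fatty acids, and carry detoxifying enzymes and exporters.

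Values are TPM, a length-adjusted relative abundance of transcripts that sums to 1000000 in each library, so a gene's value also moves when other genes change. No read counts were available, the depth of each library is unknown, and zeros are called listed at 0. Between 11268 and 11865 genes reached 1 TPM in a day 0 sample and between 12021 and 12258 in a day 9 sample. The library of day 0 mouse 4 stood apart from those of the other 3 uninjured mice. It had the fewest genes at 1 TPM (11268), and its 10 most abundant genes held 31.1% of the total against 24.6% to 25.5% in mice 1 to 3. Its median log2 difference from the other day 0 mice was -0.114 over genes with the shortest transcripts (under 1320 bases) and -0.576 over those with the longest (over 3240 bases). Mouse 3, measured the same way, ran in the opposite direction, at 0.00344 and 0.352. The day 9 libraries changed less over length, with -0.191 and -0.279 in mouse 11, 0.144 and 0.23 in mouse 12, and 0.0601 and 0.0557 in mouse 13. Counts were therefore also made without mouse 4, and are given where they differ by more than 1.5 times.

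Limma on log2(TPM + 1), with Benjamini-Hochberg adjusted p-values, called 5353 of 12323 genes (43.4%) different between day 9 and day 0. Of these 3264 (26.5% of those tested) were higher and 2089 (17.0%) lower at day 9. The p-values set the group difference against the spread of these 7 mice within their groups. Each gene's spread was drawn towards a trend over all genes. The groups did not overlap for 47.4% of genes, 29.2% with every day 9 mouse above every day 0 mouse and 18.1% with every one below. The balance of directions depended on scaling: TMM factors from the 7 libraries gave 3292 higher and 3031 lower, and factors from all 66 libraries gave 2777 higher and 3748 lower. The median change of the tested genes, in log2 units, moved with it, from 0.0947 on deposited TPM to -0.0031 and -0.1224. Without mouse 4 there were 3124 higher and 2867 lower calls, and 5109 of the 5331 calls that could be tested were kept, each in the same direction. Because 43.4% of all genes were called, a list in which about that share was called does not stand out, and each list below is read against the 26.5% and 17.0% of all genes. Gene levels are given in the order of mice 1, 2, 3 and 4 and then of mice 11, 12 and 13. Differences are day 9 minus day 0 on the log2(TPM + 1) scale with their standard error, which understates the change of genes near 0 TPM.

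**Figure D1:**
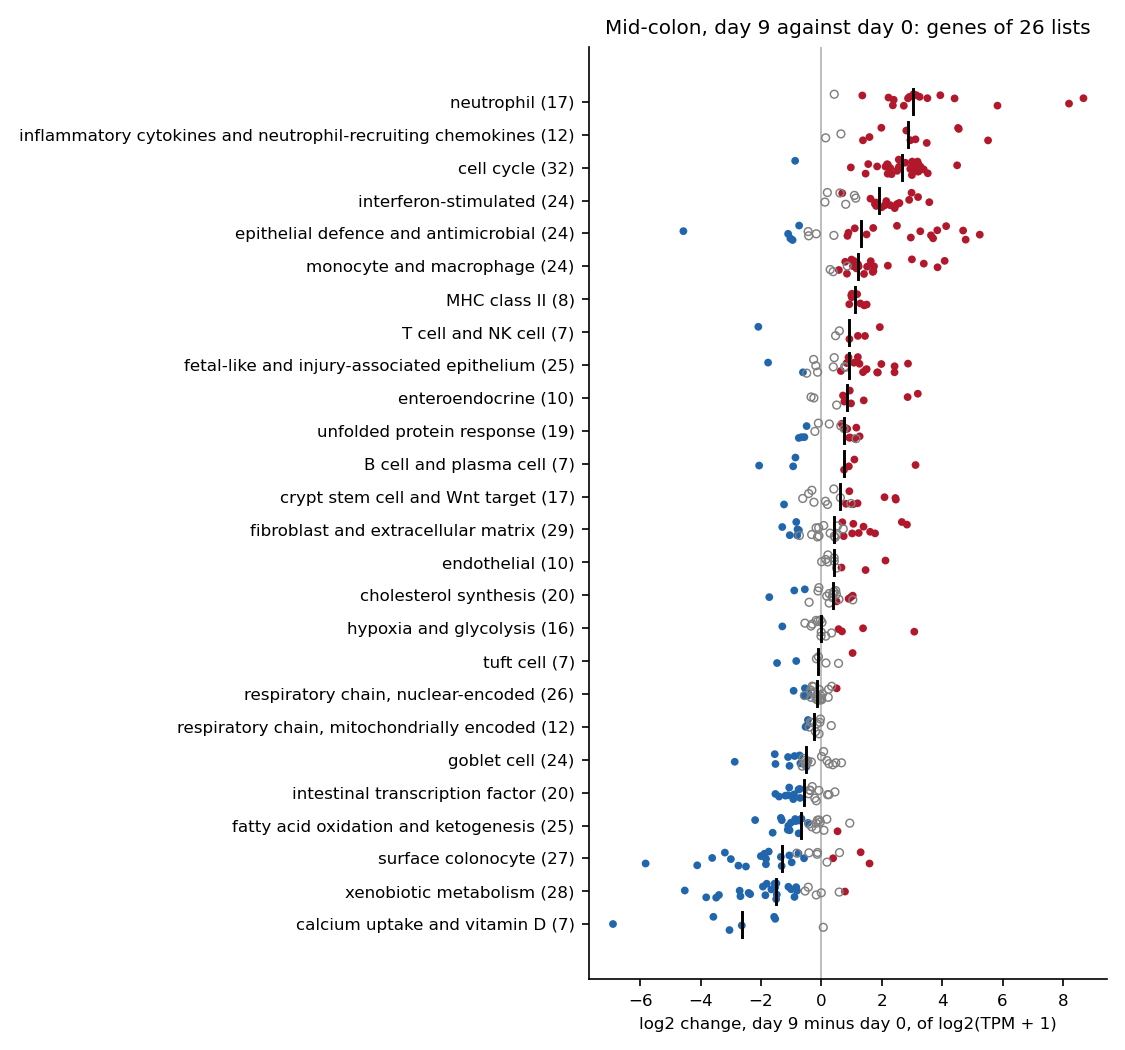
Log2 change of every tested gene in 26 gene lists, day 9 minus day 0 of mid-colon, on the log2(TPM + 1) scale. Each point is a gene (red, called higher; blue, called lower; open grey, not called), black ticks are list medians, and the number of tested genes follows each list name. Neutrophil, cytokine and cell cycle genes lie furthest to the right, with medians of 3.05, 2.88 and 2.67, and calcium uptake genes furthest to the left, at -2.64.

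Markers of the tissue showed colonic epithelium in both groups. Summed over 10 general epithelial markers, the level was 16025 to 19322 TPM at day 0 and 11824 to 13976 TPM at day 9. Of the 10, 4 fell (7 without mouse 4, when 1 rose, and 8 with TMM factors from all 66 libraries). All 10 general leukocyte markers rose, with sums of 61 to 82.3 TPM at day 0 and 224 to 418 TPM at day 9. Smooth muscle markers were present in both, at 1075 to 1530.1 and 731 to 1063 TPM, and 3 of 10 fell (8 with the same factors). Of 7 markers of stratified squamous epithelium that were tested 5 rose (3 with the same factors), with sums of 7.71 to 16.3 and 49.1 to 83.9 TPM, Sprr1a being the highest of them (24.5, 59.1 and 31.3 TPM at day 9). Trp63, which defines that epithelium, was listed at 0 in all 4 day 0 mice and was at or below 0.0515 TPM at day 9. Of 5 red cell markers tested 4 rose and 1 fell, and the list summed to 77.6 to 185 TPM at day 0 and 259 to 741 TPM at day 9. The part that cell composition had in the results was not tested beyond these sums.

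Neutrophil genes had the highest median change of any list. Of 17 tested, 16 rose and the remaining gene was not called, with a median of 3.05. S100a8 (ENSMUSG00000056054) and S100a9 encode the 2 chains of calprotectin, the main cytosolic protein of neutrophils. S100a8 was at 0, 0, 0.464 and 0.78 TPM in the uninjured mice and at 607, 1012 and 226 TPM at day 9, a difference of 8.68 ± 0.44 (adjusted p = 3.0e-06). S100a9 was at 0, 0.323, 1.43 and 1.42 and 519, 1057 and 213 TPM, a difference of 8.20 ± 0.50 (adjusted p = 5.7e-06). Both were near or at 0 in every uninjured mouse and at 213 TPM or above in every day 9 mouse. Mouse 12 was highest and mouse 13 lowest for both. The decoy interleukin-1 receptor Il1r2 went from a range of 0 to 0.551 TPM to one of 8.66 to 44.7 TPM, and the neutrophil resistin-like gene Retnlg from a range of 0 to 0.436 TPM to one of 23.3 to 118 TPM. Mmp8, a collagenase stored in neutrophil granules, was listed at 0 in the 4 day 0 mice and was at 10.7, 8.14 and 1.71 TPM at day 9. Ly6g, which encodes the surface antigen used to sort neutrophils, was abundant already before injury. It stood at 532, 659.6, 717 and 954 TPM in uninjured mice and 809, 1038 and 988 TPM at day 9, groups that overlapped (adjusted p = 0.098). It was the list's uncalled gene, although called higher without mouse 4 (0.57, adjusted p = 0.0159). In the same uninjured mice S100a8, S100a9, Retnlg and Mmp8 were at or near 0, and which cells carried the Ly6g RNA was not tested.

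Among inflammatory cytokines and chemokines that draw neutrophils, 10 of 12 tested rose and none fell, and the median was 2.88. The other 10 of the 22 listed genes did not reach 1 TPM in 3 mice and were not tested, and 7 of the 22 were listed at 0 in every uninjured mouse. The CXC chemokines Cxcl1, Cxcl2, Cxcl3 and Cxcl5 bind the neutrophil receptor CXCR2. Cxcl2 was at 0, 0, 0.0594 and 0.15 TPM at day 0 and 23.7, 71.2 and 7.3 TPM at day 9, a difference of 4.55 ± 0.55 (adjusted p = 1.5e-04). Cxcl5 was the most abundant, with 3.35, 4.31, 2.94 and 4.3 TPM before and 107, 168 and 68.2 TPM after injury (4.52 ± 0.28, adjusted p = 5.7e-06). Every day 9 mouse was above every uninjured mouse for all 4 chemokines, with mouse 12 highest for Cxcl2, Cxcl3 and Cxcl5 and mouse 11 for Cxcl1. Il1b, the inflammasome-processed cytokine interleukin-1 beta, was at 0.218, 0.391, 0.522 and 0.571 TPM and then 51.4, 188 and 26.7 TPM, a difference of 5.52 ± 0.51 (adjusted p = 3.4e-05). Tnf rose to 16.1, 14.3 and 7.43 TPM from no more than 0.36 TPM. Il1rn, which encodes the receptor antagonist of interleukin-1, was not called, with 82.4 to 100.4 TPM in uninjured mice and 93.2 to 119 TPM at day 9. The alarmin Il33 rose from 4.69, 3.13, 5.15 and 5.12 to 12.8, 26.8 and 25.3 TPM. Il6 was at or below 0.349 TPM and Il22 at or below 0.613 TPM at day 9, under the filter.

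The start regions of 3 of these chemokine genes are shown, chosen because they share a short sequence there. In RefSeq annotation on build GRCm38.p6, 17 of the 22 listed cytokine genes had a start region in the table used. A kappaB word, GGGA and TTCC parted by any 2 bases, on either strand, stood within the 250 bases before the start in 4 of the 17 (Cxcl2, Cxcl1, Cxcl3 and Il6), against 1.36% of 27025 genes. Cxcl5, which also rose, was not among the 4, and Il6 stayed under the filter. The stretches below lie on the plus strand of chromosome 5 and end at or before the annotated gene start; capitals mark the kappaB words, which overlap by all but 1 base on the 2 strands. They span chr5:90903749-90903870, chr5:90891095-90891240 and chr5:90785951-90786100.
Cxcl2: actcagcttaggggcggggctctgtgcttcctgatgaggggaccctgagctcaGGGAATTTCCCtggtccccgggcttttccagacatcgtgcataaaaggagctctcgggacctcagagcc
Cxcl1: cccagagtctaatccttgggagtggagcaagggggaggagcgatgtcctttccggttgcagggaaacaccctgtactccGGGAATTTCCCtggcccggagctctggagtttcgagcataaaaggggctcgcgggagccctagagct
Cxcl3: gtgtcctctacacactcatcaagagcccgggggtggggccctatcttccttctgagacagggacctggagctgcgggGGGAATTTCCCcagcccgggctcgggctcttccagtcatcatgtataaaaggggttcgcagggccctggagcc
The capital run is the same in the 3 genes and begins 97, 71 and 73 bases before the RefSeq start of Cxcl2, Cxcl1 and Cxcl3. The match describes the letters and not whether a factor was bound. Cxcl1 was at 0.528, 0.105, 0.206 and 0.346 and 16.2, 6.9 and 9.21 TPM, and Cxcl3 was listed at 0 in every uninjured mouse and was at 8.28, 13.3 and 2.44 TPM at day 9.

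Monocyte and macrophage genes also rose, with 21 of 24 tested higher, none lower and a median of 1.22. Ccr2, the receptor that brings monocytes out of the blood, was at 0.591, 0.857, 0.945 and 1.11 TPM and then 1.98, 5.56 and 3.31 TPM (1.23 ± 0.26, adjusted p = 0.0034). Ccl8, a monocyte chemokine made by macrophages, was at 5.16, 12.3, 8.68 and 9.07 TPM and then 211, 106 and 109.6 TPM (3.84 ± 0.30, adjusted p = 1.8e-05). Chil3, a chitinase-like protein of alternatively activated macrophages and neutrophils, went from at most 0.217 TPM to 21.2, 31.8 and 8.45 TPM. For Ccr2 and Ccl8 the groups were separate, and the 3 day 9 mice did not share an order, since mouse 12 was highest for Ccr2 and mouse 11 for Ccl8. The lipopolysaccharide co-receptor Cd14 rose by 2.20 and the macrophage lysozyme Lyz2 by 1.00. The complement genes C1qa, C1qb and C1qc of resident macrophages rose by 1.11, 1.16 and 1.21. Mrc1 and Cd163, scavenger receptors of resident macrophages, were not called, at 5.63 to 7.29 and 6.53 to 9.81 TPM and at 0.533 to 1.2 and 0.835 to 2.91 TPM. All 8 tested MHC class II genes rose, with a median of 1.10, among them H2-Ab1 (0.99), H2-DMb1 (1.50), H2-Aa from 52.1, 51.1, 51.3 and 63.8 to 144, 174 and 125 TPM and the invariant chain Cd74 from a range of 32.8 to 40.8 TPM to one of 72.4 to 109 TPM. In a joint fit of all 19 mid-colon samples H2-Ab1 and Cd74 were not called (adjusted p = 0.108 and 0.0983).

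Lymphocyte genes were low, and most could not be tested. Of 21 T and NK cell genes 7 passed the filter. Cd3d rose from a range of 0.227 to 0.593 TPM to one of 1.28 to 1.67 TPM and the cytotoxic granule protease Gzmb from a range of 0 to 0.169 TPM to one of 1 to 5.41 TPM, with Cd3g and Nkg7 also higher. Cd3e, another chain of the T cell receptor complex, stayed under 1 TPM in all 7 mice. Of 7 B and plasma cell genes tested 4 rose and 3 fell. Cd79a, Cd79b and Ms4a1, expressed by B cells, rose to 2.05 to 3.79, 2.19 to 5.95 and 1.18 to 1.61 TPM (Cd79b not without mouse 11, and none of the 3 in the joint fit, with adjusted p = 0.194, 0.199 and 0.206), and Cxcl13, the chemokine that places B cells in follicles, rose from 2.31, 1.42, 1.64 and 3.59 to 91.3, 17.7 and 10.6 TPM. Jchain, the joining chain of secreted IgA in plasma cells, fell by 2.06 ± 0.46 (adjusted p = 0.0049), from 139.8, 26.4, 53.6 and 84.6 to 10.1, 18 and 17.1 TPM. Sdc1, a plasma cell marker that epithelium also carries, fell by 0.86, and Mzb1 of plasma cells passed the test as lower (adjusted p = 0.045), a call lost without any of mice 1, 3, 4, 11, 12 or 13. Mouse 11 had by far the highest Cxcl13 and the lowest Jchain at day 9.

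Interferon-stimulated genes rose as a group, and of all lists their median deviation differed most between the day 9 mice. Of 24 tested, 18 rose and none fell, with a median of 1.90. Gbp2, a GTPase that attacks bacteria inside cells, was at 15.4, 17.5, 22.1 and 26.4 TPM and then 276, 409 and 61.8 TPM (3.20 ± 0.52, adjusted p = 8.1e-04). Iigp1, another such GTPase, was at 0.48, 0.6, 0.646 and 1.51 and 21.1, 55.6 and 6.44 TPM (3.57 ± 0.54, adjusted p = 5.4e-04). The groups did not overlap for these 2 genes, but mouse 13 was far nearer to the uninjured mice than mouse 12. The T cell chemokine Cxcl9 rose by 2.58, and Cxcl10 was at 7.14, 49.8 and 8.41 TPM at day 9 against 0.433 to 1.57 TPM before injury. Among genes tied more closely to type I interferon, Irf7 (43.1 to 59.9 and 30.1 to 78.6 TPM), Ifit1, Ifit3, Rsad2 and Usp18 were not called, while Ifit2, Isg15 and Oasl2 rose by 2.15, 1.77 and 1.78. The calls of Isg15 and Oasl2 were lost without mouse 12 (adjusted p = 0.0546 and 0.0672), in the joint fit (0.0614 and 0.0654) and with no filter (0.0682 and 0.0668), and without mouse 13 Rsad2 was called (adjusted p = 0.0116). Irf1 was at 122 to 151 TPM at day 0 and 108 to 216 TPM at day 9 and was not called.

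In RefSeq start regions, the interferon-stimulated response element core, GAAA and GAAA parted by any 2 bases, on either strand, stood within 250 bases before the start in 10 of 19 listed genes with an entry, against 3.46% of 27025 genes. The gamma-activated sequence TTCNNNGAA, which reads alike on both strands, stood in 6 of 19 against 8.13%, and 3 genes had both. Stretches are shown for 2 GTPase genes that rose and differed widely between the day 9 mice, with the response element in capitals. They lie on the plus strand of GRCm38.p6 at chr3:142620513-142620618 and chr11:58199406-58199555.
Gbp2: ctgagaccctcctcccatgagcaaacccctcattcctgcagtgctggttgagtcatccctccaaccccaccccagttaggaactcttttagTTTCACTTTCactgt
Igtp: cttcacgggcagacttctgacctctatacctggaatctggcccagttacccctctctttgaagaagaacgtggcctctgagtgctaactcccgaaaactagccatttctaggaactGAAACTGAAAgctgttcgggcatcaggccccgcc
Gbp2 carries the element on the opposite strand, 59 to 50 bases before its RefSeq start, and Igtp carries it 34 to 25 bases before its RefSeq start. In GENCODE annotation Gbp2 starts at chr3:142620602, inside the printed stretch, so by that start the element lies within the gene. Igtp was at 4.04, 4.47, 4.81 and 3.84 TPM at day 0 and at 44.7, 116 and 10.5 TPM at day 9.

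The 3 day 9 mice differed in how far each group of genes had moved. For the 18 interferon-stimulated genes that rose, the median deviation from the mean of the 3 mice was -0.0768 in mouse 11, 1.16 in mouse 12 and -1.06 in mouse 13 on the log2 scale. Mouse 12 was highest for all 18, and mouse 13 lowest for 15. Over the 16 neutrophil genes the deviations were 0.186, 0.832 and -1.15. Over all 3264 genes called higher they were -0.231, 0.252 and -0.00552, smaller for mice 12 and 13 than in the interferon and neutrophil lists. Such a median shows a shift that the genes of a set share, and opposite deviations cancel in a mixed set. The spread of single genes was not compared between sets. The 7 enteroendocrine genes that rose had nearly the same median in the 3 mice, with deviations of 0.0801, -0.0201 and -0.0385. Among genes that fell, mouse 12 was lowest for 17 of 18 surface colonocyte genes, 20 of 22 xenobiotic genes and 9 of 9 goblet cell genes. The mouse with the highest neutrophil, interferon and cell cycle levels thus also had the lowest levels of most genes called lower in these 3 lists. The counts leave out genes that were not called. Of the uncalled goblet cell genes, Muc2 was highest in mouse 12 and Zg16 was lowest in it. Over all 12323 tested genes the deviations were -0.143, 0.127 and 0.02. Mitochondrially encoded genes held 19.3%, 12.1% and 14.5% of the total in mice 11, 12 and 13, and the 10 most abundant genes 27.3%, 18.6% and 21.9%. The part of these library differences was not tested, and with 3 mice this is a description with no test.

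**Figure D2:**
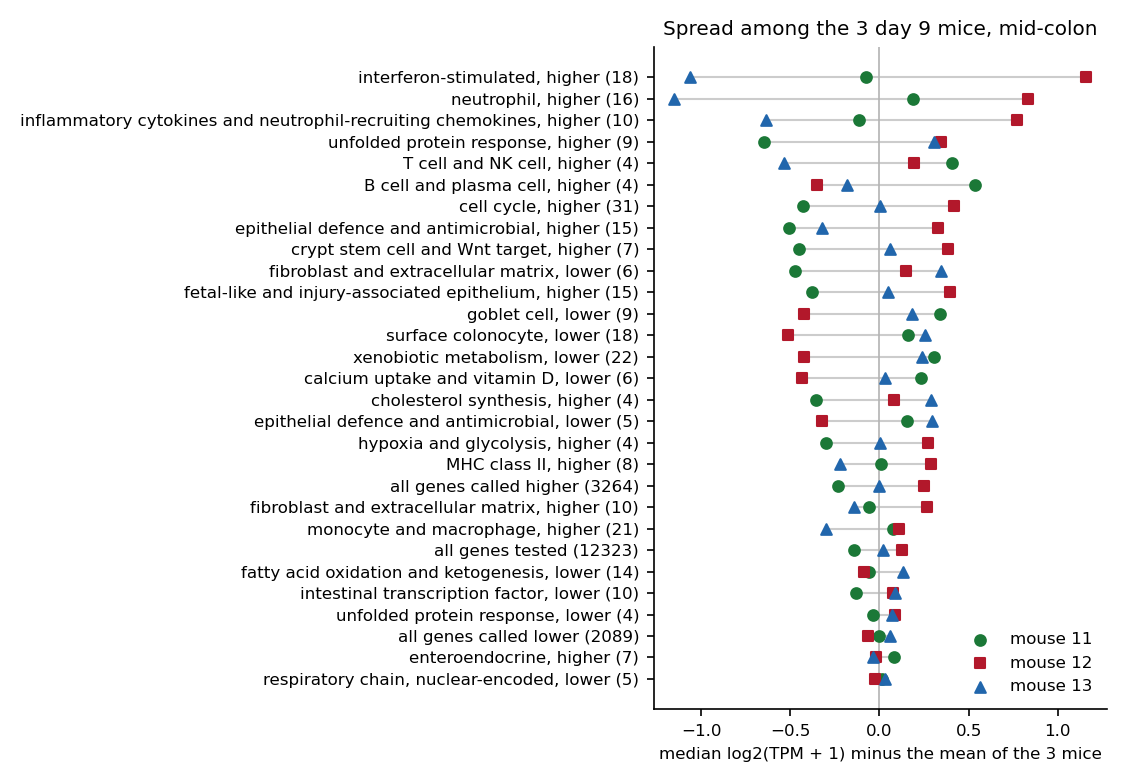
Median log2(TPM + 1) of the called genes of each list in each day 9 mouse, as the deviation from the mean of the 3 mice, with the number of genes in brackets. Mouse 12 (squares) and mouse 13 (triangles) are furthest apart for interferon-stimulated genes (1.16 and -1.06), and the 3 mice almost coincide for enteroendocrine genes.

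Epithelial defence genes moved in both directions, with 15 of 24 tested higher and 5 lower. Nos2, the inducible nitric oxide synthase, was at 0.0444, 0.372, 0.15 and 0.203 TPM and then 21.4, 91.6 and 15.6 TPM (4.78 ± 0.48, adjusted p = 5.1e-05). The hydrogen peroxide-producing oxidase Duox2 rose from a range of 5.64 to 15.7 TPM to one of 35.7 to 86.9 TPM and its maturation factor Duoxa2 from a range of 4.32 to 15.9 TPM to one of 117 to 169 TPM. Slpi, a protease inhibitor, rose from 45.2, 104, 41.8 and 28 to 1017, 835 and 766 TPM, and the iron-chelate binder Lcn2 from 2.44, 2.69, 3.36 and 5.29 to 133, 63 and 19.5 TPM. Retnlb, a bactericidal product of goblet cells, was at 0, 2.09, 0.227 and 0.0952 TPM at day 0 and 21.1, 48.8 and 44.5 TPM at day 9 (4.69 ± 0.41, adjusted p = 2.7e-05). The antibacterial lectin Reg3b was at 0 in 3 uninjured mice and rose to 4.52, 24.6 and 5.77 TPM, and its relative Reg3g was at 1.06, 7.08 and 1.41 TPM at day 9, a call lost when no filter was applied (adjusted p = 0.0611). The acute-phase gene Saa3 rose from 0.248, 0.594, 0.387 and 1.46 to 75.2, 70.8 and 40.7 TPM. Saa1 was already at 2298 to 5378 TPM in uninjured mice and was at 3795 to 7642 TPM at day 9, groups that overlapped (adjusted p = 0.04), and the call was lost with TMM factors (adjusted p = 0.165) and when any of mice 1, 2, 3, 11 or 13 was left out.

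The 5 defence genes that fell were Mptx1, Wfdc2, Lypd8, Il18 and Lyz1. Mptx1, a mucosal pentraxin, had the largest fall: it was at 1744, 1467, 1763 and 2342 TPM in uninjured mice and at 83.4, 52.7 and 95.8 TPM at day 9, a fall of 4.57 ± 0.22 (adjusted p = 3.0e-06). Every day 9 mouse was far below every uninjured mouse. Wfdc2, of a protease inhibitor family, fell from a range of 449 to 739.8 TPM to one of 242 to 394 TPM, and Lypd8, which coats flagellated bacteria and keeps them off the epithelium, fell from 25606, 28388, 27291 and 29866 to 20957, 13274 and 16536 TPM. Il18, an interleukin-1 family cytokine made by the epithelium, fell by 0.95 ± 0.15 (adjusted p = 7.6e-04), opposite in direction to Il1b. Lyz1, the lysozyme of Paneth cells, fell from 4.08, 6.04, 5.22 and 4.1 to 2.45, 1.1 and 1.73 TPM. The tryptophan-degrading enzyme Ido1 and the transglutaminase Tgm2 rose, to 12.8 to 86.7 and 34.6 to 172 TPM, both highest in mouse 12.

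Cell cycle genes rose almost without exception: 31 of 32 tested were higher, with a median of 2.67, and Cdkn1a was lower. Mki67 (ENSMUSG00000031004), the Ki-67 antigen of dividing cells, was at 8.95, 10.1, 11.9 and 4.68 TPM at day 0 and 42, 72.8 and 54.2 TPM at day 9 (2.56 ± 0.29, adjusted p = 1.0e-04). Rrm2, the regulatory subunit of ribonucleotide reductase, had the largest rise: it was at 1, 1.91, 2.3 and 1.18 TPM and then 39.5, 83.1 and 54.2 TPM (4.49 ± 0.28, adjusted p = 5.7e-06). Mcm5, a subunit of the replicative helicase, went from 2.86, 2.4, 4.18 and 1.49 to 27.6, 54.5 and 43.7 TPM (3.52 ± 0.29, adjusted p = 2.1e-05). The groups were far apart for these genes, with mouse 4 the lowest uninjured mouse for Mki67 and Mcm5, and all 31 calls were also made without it. Genes of S phase and of mitosis both rose, as with Pcna (2.28), Top2a (3.21), Ccnb1 (3.00) and Plk1 (1.46), and so did cyclin D1 (Ccnd1, 2.51). Cdkn1a, the p21 inhibitor of cyclin-dependent kinases, fell from 286, 259, 271 and 231 to 108, 192 and 138 TPM (a fall of 0.87 ± 0.19, adjusted p = 0.0043). Mouse 12 had the highest value for all 31 genes and mouse 11 the lowest for 30, and the median of all tested genes lay the same way in these mice (0.127 and -0.143).

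Start regions are shown for the 2 cell cycle genes with the largest rises under the naming rule. Of the 25 listed genes with a RefSeq entry, 19 held CCAAT on either strand in the 250 bases before the start, against 37.5% of 27025 genes. An E2F word (TTTCCCGC or TTTGGCGC, either strand) stood in 3 of 25 against 1.51%, and a cell cycle homology region word (TTTGAA or TTCGAA, either strand) in 9 of 25 against 19.6%. The stretches lie on the plus strand of GRCm38.p6 at chr8:75109350-75109508 and chr12:24708104-24708240, with CCAAT in capitals and, in Mcm5, the E2F word in capitals nearest the left end.
Mcm5: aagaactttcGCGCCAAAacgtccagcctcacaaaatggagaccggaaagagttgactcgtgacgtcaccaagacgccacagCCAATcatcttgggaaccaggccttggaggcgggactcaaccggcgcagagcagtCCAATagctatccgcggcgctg
Rrm2: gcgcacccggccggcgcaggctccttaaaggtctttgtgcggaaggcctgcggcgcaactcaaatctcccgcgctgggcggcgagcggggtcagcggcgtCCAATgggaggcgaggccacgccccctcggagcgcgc
Mcm5 holds the E2F word 149 to 142 bases and CCAAT 77 to 73 and 22 to 18 bases before its start, and Rrm2 holds CCAAT 50 to 46 bases before its start.

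Stem cell and Wnt target genes moved less than the cell cycle. Lgr5, the crypt base stem cell receptor, was at 0.274, 0.469, 0.418 and 0.2 TPM at day 0 and 0.0389, 0.165 and 0.587 TPM at day 9, below the filter. Of 17 stem cell and Wnt target genes tested 7 rose and 1 fell (2 without mouse 4). Cd44 rose from 1.6, 2.78, 3.55 and 1.73 to 15, 25.7 and 13 TPM and Cdca7 from 7.83, 6.69, 9.67 and 3.74 to 28.5, 53.4 and 45.8 TPM, while Myc rose by 2.09 and the stem cell factor Ascl2 by 1.05 to no more than 3.49 TPM. Axin2, a standard readout of Wnt signalling, was at 1.26, 1.45, 1.87 and 0.585 and 1.64, 3.73 and 2.33 TPM and was not called, although it was without mouse 11 (adjusted p = 0.0424). Hopx, a marker of slowly dividing stem cells and of other epithelial cells, rose by 1.20. Lgr4, the R-spondin receptor found along the whole crypt, fell from 62.4, 65.7, 83.4 and 39.6 to 24.9, 25.2 and 25.5 TPM (1.24 ± 0.23 lower, adjusted p = 0.0017).

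Genes of the fetal-like state that injured intestinal epithelium takes on rose in part, with 15 of 25 tested higher and 2 lower (4 with TMM factors from all 66 libraries). Ly6a (Sca-1), the usual surface marker of that state, was at 575, 821, 858 and 936 TPM in uninjured mice and 3589, 5793 and 3593 TPM at day 9 (2.42 ± 0.21, adjusted p = 2.7e-05). Plaur, the urokinase receptor, rose from 2.41, 1.88, 2.49 and 1.96 to 13.7, 42.6 and 18.4 TPM. The annexin Anxa1 rose from a range of 337 to 458 TPM to one of 849.9 to 1002 TPM, and the growth factors Areg and Ereg by 0.84 and 1.50 (Areg not without mouse 2, 12 or 13). Clu and Ctgf, 2 usual markers of that state, did not rise. Clu, which marks revival stem cells, was at 15, 12, 18.4 and 11.8 and 10.4, 6.67 and 9.98 TPM and passed the test as lower (adjusted p = 0.047), a call lost when any of mice 1, 2, 3, 12 or 13 was left out. Ctgf (Ccn2), a target of the YAP coactivator, fell by 1.77 ± 0.27 (adjusted p = 5.5e-04), from 10.3, 11.2, 22.6 and 13.4 to 2.56, 3.78 and 3.75 TPM.

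**Figure D3:**
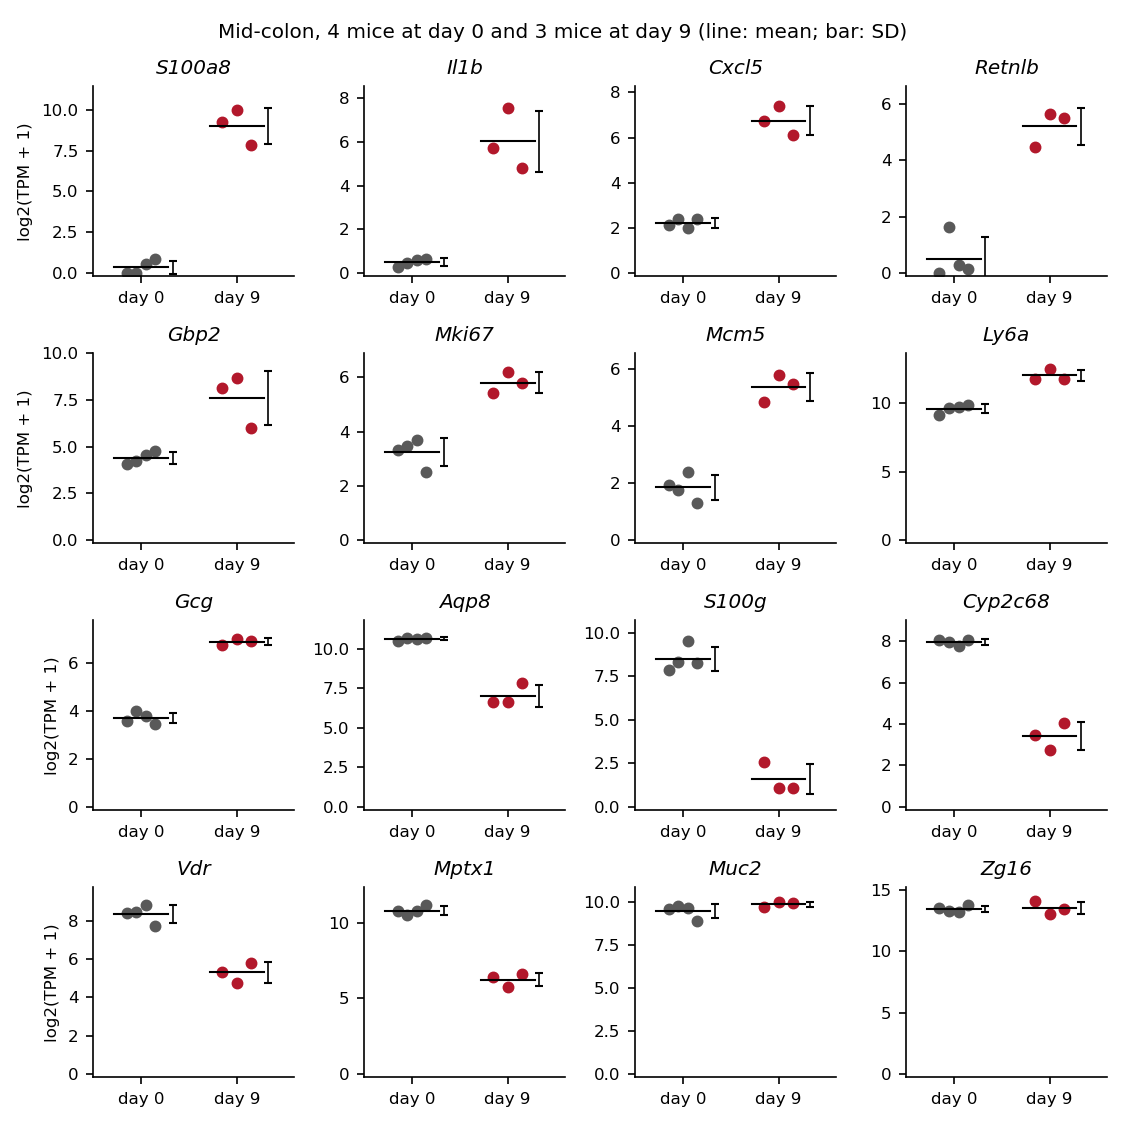
Levels of 16 genes in each mouse, as log2(TPM + 1) (vertical axis, linear in log2), for 4 uninjured mice (grey) and 3 day 9 mice (red), with the mean as a line and the SD as a bar. The groups are separate for the first 14 genes and overlap for Muc2 and Zg16.

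Absorptive colonocyte genes fell, with 18 of 27 tested lower, 3 higher and a median of -1.32. Car1 (ENSMUSG00000027556), a carbonic anhydrase of colonocytes, was at 3094, 4162, 4381 and 4726 TPM at day 0 and 1736, 839.5 and 1202 TPM at day 9, a fall of 1.74 ± 0.23 (adjusted p = 2.5e-04). The water channel Aqp8 was at 1469, 1685, 1606 and 1668 TPM and then 99.4, 97.4 and 226 TPM, a fall of 3.62 ± 0.26 (adjusted p = 1.3e-05). The chloride-bicarbonate exchanger Slc26a3 fell from a range of 1129.9 to 1710.0 TPM to one of 94.1 to 285 TPM. Cyp2c55, a cytochrome P450, was at 905, 898, 1363 and 865 TPM and then at 105, 1.28 and 21.3 TPM, a fall of 5.82 ± 0.96 (adjusted p = 8.8e-04). The day 9 mice spread widely, with mouse 11 highest and mouse 12 near 0. Slc37a2, a sugar phosphate transporter, fell by 4.11, the selenium-binding protein Selenbp1 by 3.20 and the membrane carbonic anhydrase Car4 by 1.32. The sodium channel subunits Scnn1a and Scnn1g fell by 1.84 and 1.06, and the butyrate transporter Slc5a8 fell by 1.89. Krt20, a keratin of surface cells, was at 710.0 to 879 and 494 to 734 TPM and was not called, although it was called lower with TMM factors (adjusted p = 0.00858) and without mouse 4 or 12. The bile acid and steroid exporter subunit Slc51b rose from 26.8, 24.4, 20.6 and 25.7 to 47.8, 108 and 82.7 TPM, and the membrane protein Emp1 from 88.5, 89.5, 109 and 98.8 to 239, 259 and 219 TPM.

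Calcium uptake genes showed the deepest fall of any list, a median of -2.64 with 6 of 7 tested lower. S100g (ENSMUSG00000040808), the calcium-binding protein calbindin-D9k that carries calcium through the cell, was at 234, 324, 721 and 303 TPM in uninjured mice and 4.99, 1.14 and 1.13 TPM at day 9, a fall of 6.90 ± 0.43 (adjusted p = 5.7e-06). Trpv6, the apical calcium channel, fell by 3.58 ± 0.27 (adjusted p = 1.5e-05), from 28.4, 32.7, 36 and 19 to 2.21, 0.761 and 1.61 TPM. The vitamin D receptor gene Vdr, whose protein induces both, was at 339.5, 343, 454 and 207 TPM and then 39.3, 25.9 and 55.1 TPM, a fall of 3.04 ± 0.29 (adjusted p = 4.2e-05). None of the 3 genes had overlapping groups, and mouse 12 was lowest or level with the lowest for each. The receptor's partner Rxra and the basolateral calcium pump Atp2b1 fell by 1.53 and 1.56. Cyp24a1, the vitamin D-degrading enzyme, was listed at 0 in all 7 mice.

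Fatty acid oxidation genes fell less, with 14 of 25 tested lower, 1 higher and a median of -0.66. Acadm, the medium-chain acyl-CoA dehydrogenase, fell from 118, 108, 101 and 92.9 to 41.3, 35.4 and 45.8 TPM (a fall of 1.34 ± 0.16, adjusted p = 1.1e-04), while the long-chain enzyme Acadl rose from 107, 129.5, 140.3 and 95.6 to 164, 182 and 164 TPM, a call lost with TMM factors from all 66 libraries (adjusted p = 0.095) and without mouse 1, 12 or 13. Slc16a1, a butyrate and lactate transporter, fell by 1.61 ± 0.22 (adjusted p = 2.8e-04), and the coactivator Ppargc1a, which drives mitochondrial gene expression, by 2.19 ± 0.30 (adjusted p = 2.7e-04). Cpt1a, which admits long-chain fatty acids to mitochondria, fell by 1.05.

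Xenobiotic metabolism genes fell broadly: 22 of 28 tested were lower, 1 was higher, and the median was -1.52. Cyp2c68, a cytochrome P450, was at 260.2, 249.5, 213 and 261 TPM and then 10.2, 5.62 and 15.6 TPM, a fall of 4.52 ± 0.27 (adjusted p = 5.1e-06). Ces2a, a carboxylesterase, went from 378, 290.4, 505 and 543 to 39.3, 15 and 39.7 TPM, and the drug exporter Abcb1a from 478, 484, 647 and 377 to 58, 23.2 and 57.3 TPM. The sulfotransferase Sult1a1 fell by 3.39 and the xenobiotic receptor Nr1i2 (PXR) by 1.09. Gsta4, which conjugates lipid peroxidation products to glutathione, was the gene that rose, from 45.1, 44.2, 35.2 and 28.3 to 69.8, 67.9 and 58.3 TPM (0.78 ± 0.19, adjusted p = 0.0079). Cyp2c65 was at 5.32 to 7.82 and 3.93 to 11 TPM and was not called.

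Transcription factor genes of the intestinal epithelium fell or were not called: 10 of 20 tested were lower and none higher. Klf5 fell from 117, 136, 155 and 62.7 to 40.2, 40.4 and 34.5 TPM and Klf4, a factor of differentiated cells, from 243, 248, 298 and 163 to 97.7, 79.4 and 86.5 TPM. Hnf4a, which sustains enterocyte genes, fell by 1.19 ± 0.21 (adjusted p = 0.0013), and the lipid sensor Ppard by 1.07. Cdx1 and Cdx2, which set intestinal identity, were not called, with 95.8, 110.1, 117 and 44.4 and 59.5, 93.7 and 72.2 TPM for Cdx1 and 5.62 to 9.94 and 6.82 to 10.7 TPM for Cdx2. Mouse 4 was the lowest uninjured mouse for Klf4, Klf5, Hnf4a and Cdx1, and without it Cdx1 was called, at -0.53 (adjusted p = 0.0394).

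Secretory lineages went different ways. Goblet cell genes fell in part, with 9 of 24 tested lower and none higher (14 lower with TMM factors from all 66 libraries). Muc2 (ENSMUSG00000025515), the gel-forming mucin, was at 752, 872, 806 and 473 TPM and 813, 995 and 956 TPM, overlapping groups that were not called (adjusted p = 0.16). Zg16, another abundant mucus protein, was at 11651, 10240.0, 9427 and 13927 and 17050.0, 8381 and 11387 TPM (adjusted p = 0.82). Klk1, a kallikrein of goblet cells, fell from 2767, 2463, 2555 and 3937 to 425, 298 and 479 TPM (a fall of 2.87 ± 0.20, adjusted p = 1.2e-05). Clca1, a mucus-processing protein, fell by 1.52, the chloride and bicarbonate channel Best2 by 1.54, and Atoh1, the transcription factor that specifies secretory cells, by 1.06. The trefoil peptide Tff3 passed the test as lower (adjusted p = 0.025), a call lost without mouse 1, 4 or 12. Klk1, Clca1 and Atoh1 were below every uninjured mouse in all 3 day 9 mice.

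Enteroendocrine genes rose, with 7 of 10 tested higher and none lower. Gcg (ENSMUSG00000000394), which encodes proglucagon, the precursor of the gut hormones GLP-1 and GLP-2, was at 11, 14.9, 12.7 and 10.2 TPM in uninjured mice and 106, 128 and 122 TPM at day 9, a difference of 3.19 ± 0.17 (adjusted p = 4.0e-06). Tac1, the precursor of substance P in enterochromaffin cells and nerves, was at 8.5, 9.84, 5.9 and 11.9 TPM and then 61.7, 76.5 and 71.8 TPM (2.85 ± 0.22, adjusted p = 1.7e-05). Both were tight within each group and far apart between groups. Pyy (peptide YY) rose from 281, 217, 187 and 195 to 616, 557 and 557 TPM, Insl5 from 122, 91.2, 98.4 and 146 to 219.8, 222 and 226 TPM, and Chga, a general marker of the lineage, from 11.8, 10.4, 12.8 and 10.1 to 20.2, 18.8 and 18.3 TPM (0.71 ± 0.17, adjusted p = 0.0059). Neurog3, the progenitor factor of the lineage, was at 0.0928, 0.0555, 0.111 and 0.031 and 0.437, 1.5 and 1.94 TPM, under the filter. Of 7 tuft cell genes tested 1 rose and 2 fell, and most others were near or under the filter, with Dclk1 at 0.764 to 1.01 and 0.906 to 1.28 TPM. The prostaglandin D synthase Hpgds fell from 20.2, 19.4, 13.4 and 24.3 to 7.04, 5.79 and 5.85 TPM.

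Stromal genes also split. Of 29 fibroblast and matrix genes tested 10 rose and 6 fell. The collagenase-activating protease Mmp3 rose from 0.192, 0.219, 0.569 and 0.453 to 12, 6.63 and 7.95 TPM (2.83 ± 0.22, adjusted p = 1.8e-05), and Timp1, an inhibitor of such proteases, from 1.94, 1.42, 3.19 and 1.84 to 12.7, 23.1 and 20.5 TPM (2.66 ± 0.26, adjusted p = 4.4e-05). Grem1, a BMP antagonist of the crypt base stroma, rose by 1.78. The 6 falls, near the 17.0% of all genes, were of matrix genes. Col1a1, a chain of type I collagen, was at 13.6, 14, 14.4 and 13.4 TPM and then 3, 9.11 and 8.15 TPM (a fall of 1.05 ± 0.29, adjusted p = 0.016), and Col1a2, Col3a1, Sparc, Postn and the proteoglycan Lum fell by 0.74 to 1.30 (Postn not without mouse 3 or 11). Mouse 11 had the lowest value for 5 of these 6. The other listed collagens, Col4a1, Col4a2, Col5a1, Col6a1 and Col18a1, were not called. Of 10 endothelial genes tested 3 rose, near the 26.5% of all genes called higher, and 7 were not called. The adhesion molecules Icam1 and Vcam1, which bind leukocytes at the vessel wall, rose to 3.92 to 11.2 and 4.4 to 6.91 TPM. Pecam1, a general endothelial marker, was not called (14.5, 21.3, 9.42 and 9.58 and 8.02, 16.9 and 16.2 TPM).

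The remaining lists hold pathways that most cells share. Except for the rises in the unfolded protein response, their counts in the reported fit were near or below the shares of all genes. These shares were 26.5% higher and 17.0% lower, so such counts do not stand out. In the unfolded protein response 9 of 19 genes rose and 4 fell, with a median of 0.75. Hspa5 (BiP), the main chaperone of the endoplasmic reticulum, was at 331, 351, 331 and 196 TPM and then 316, 710.1 and 779 TPM, with mouse 11 inside the uninjured range and the other 2 above it (adjusted p = 0.036, 0.0544 with TMM factors from all 66 libraries, and lost without mouse 3, 4, 12 or 13). The chaperone-related genes Manf and Calr rose by 1.26 and 1.09 and the transcription factor Atf4 by 0.75, while Xbp1 rose by 0.67, a call lost without mouse 12 or 13. Ddit3 (CHOP), the death-linked factor of that response, and Edem1, which sorts misfolded proteins for degradation, fell by 0.66 and 0.75. Both calls were lost without mouse 3, 11 or 13, and that of Edem1 also without mouse 1 or 2. In cholesterol synthesis 4 of 20 rose and 3 fell, with Fdps and Idi1 higher by 1.04 and 0.97 (neither without mouse 13) and Dhcr7 and Sc5d lower by 1.73 and 0.55. Of 26 nuclear genes of the respiratory chain 1 rose and 5 fell (9 fell without mouse 4, and 15 with TMM factors from all 66 libraries), with a median of -0.16. Cox6c of complex IV fell by 0.92, and Ndufs1 of complex I was not called (80.2 to 101 and 71 to 92.4 TPM). Cycs, cytochrome c, rose by 0.50 and Uqcrfs1 of complex III fell by 0.57. The call of Cycs was lost without mouse 1, 2, 3, 12 or 13 and with TMM factors (adjusted p = 0.106), and that of Uqcrfs1 without mouse 1 or 11. Among 12 mitochondrially encoded genes 3 fell, none of them with TMM factors from the 7 libraries, and mt-Nd1 was not called (9377 to 12003 and 10487 to 17969 TPM). Of those that fell, mt-Co1 (0.52) and mt-Nd6 (0.45) lost the call without mouse 12 or 13, and mt-Nd6 also without mouse 2. In hypoxia and glycolysis 4 of 16 rose and 1 fell (4 fell with TMM factors from all 66 libraries). The glycolytic activator Pfkfb3 rose from 0.823, 1.09, 1.54 and 1.09 to 15.7, 19.2 and 15.9 TPM and hexokinase 2 (Hk2) from 51.5, 50.4, 63.7 and 39.8 to 84.7, 202 and 138 TPM, the glycolytic enzyme Pgk1 rose by 0.57 (0.31 with TMM factors from all 66 libraries, adjusted p = 0.0867), and the glucose transporter Slc2a1 was not called (70.1 to 109 and 79 to 133 TPM), while Ndrg1, a usual target of hypoxia, fell from 47.6, 49.6, 49 and 37.7 to 17.6, 21.2 and 15.7 TPM.

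Outside the lists, the naming rule gave 8 genes that rose and 8 that fell. Clca4b, a calcium-activated chloride channel regulator, was at 1.23, 57.8, 5.14 and 32.6 TPM in uninjured mice, which differed widely, and at 1585, 1319.5 and 1198 TPM at day 9 (6.73 ± 0.91, adjusted p = 2.8e-04). Wfdc18, a protease inhibitor family gene, went from 16.1, 25.1, 12.5 and 14.9 to 1542, 672 and 550.3 TPM. Socs3, the feedback inhibitor of STAT3 signalling, went from 1.14, 0.795, 2.07 and 2.54 to 106, 74.9 and 104 TPM (5.22 ± 0.26, adjusted p = 3.0e-06). Acod1, the itaconate-producing enzyme of activated macrophages and neutrophils, was at or near 0 before injury and at 17.8, 59.9 and 5.69 TPM at day 9. Ly6c1, Trim15, Tgtp1 and the acute-phase inhibitor Serpina3n completed the rises, at 4.67, 4.23, 4.84 and 4.22. The falls were led by Mettl7a2, a methyltransferase-like gene (4.15 lower), and by Dbp, an output gene of the circadian clock, from 94.8, 89.3, 100.5 and 81.3 to 3.32, 4.72 and 7.57 TPM (3.95 ± 0.23 lower, adjusted p = 4.8e-06). Dio1, the deiodinase that activates thyroid hormone, and Pck1, the gluconeogenic enzyme, fell by 3.88 and 3.82. Slc20a1, a phosphate transporter, Mep1a, a brush border protease, Kyat1, a kynurenine aminotransferase, and Klk15 fell by 3.60, 3.57, 3.67 and 3.71. The labels do not give the hour of dissection.

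Several calls near the threshold were lost in other fits. The joint fit of the 19 mid-colon samples also left Clu, Areg, Saa1, Tff3, Scnn1g, Mzb1, Hspa5, Cycs, mt-Co1 and mt-Nd6 uncalled, with adjusted p from 0.0522 (Scnn1g) to 0.494 (Clu). With no filter on low values Clu, Areg, Saa1, Tff3, Postn, Mzb1, Cd79b, Hspa5, Edem1, Cycs, mt-Co1 and mt-Nd6 were uncalled, from 0.0507 (Cycs) to 0.151 (mt-Co1). With TMM factors from all 66 libraries Areg, Cd79b, Cycs and Saa1 were uncalled (0.0759, 0.0667, 0.292 and 0.258).

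Some of the named genes have near-identical relatives among which short reads are divided by estimate. These include Saa1 and Saa2, Clca4b, Tgtp1, Ly6a and Ly6c1, Reg3b and Reg3g, and the Cyp2c and Ces2 genes, whose separate levels are uncertain.

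Day 9 was compared with day 6, the last day of DSS, and with day 14 to place these levels in the course. Against day 6, limma called 4919 of 12131 genes (40.5%), 3794 higher (31.3%) and 1125 lower (9.27%) at day 9. With TMM factors the split was 2961 higher and 2466 lower, and with factors from all 66 libraries 2353 and 3500. Against day 9, 2425 of 12317 genes (19.7%) were called at day 14, 785 higher (6.37%) and 1640 lower (13.3%), and 1353 and 1781 or 1769 and 1508 with the 2 sets of factors. These comparisons share the day 9 libraries with the one above, so their values are set side by side and not counted as further support.

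Cell cycle genes rose from day 6 to day 9 and fell again by day 14. At day 9, 31 of 32 were called above day 6, and at day 14, 31 of 32 were called below day 9. Mki67 was at 4.92, 0.575 and 0.921 TPM in the 3 mice of day 6, of which 2 were under every uninjured mouse, and at 7.08, 11.9 and 11.9 TPM at day 14, within or close to the uninjured range. Among neutrophil genes 15 of 17 rose from day 6 to day 9 and 1 fell, and S100a8, near 0 in uninjured mice, was at 27.6, 17.7 and 99.8 TPM at day 6. By day 14, 4 had fallen from day 9 and 1 had risen, and S100a8 was at 26.7, 131 and 176 TPM. Gcg was at 46.3, 54 and 81.5 TPM at day 6, rose to day 9 by 0.99 ± 0.22 (adjusted p = 0.0073) and then fell by 1.53 ± 0.21 (adjusted p = 0.0036). Tac1 was at 131, 93.7 and 373 TPM at day 6, above every day 9 value (adjusted p = 0.0499).

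Several genes of the fetal-like and epithelial defence lists were not called between day 6 and day 9. The differences, day 9 minus day 6, were 0.12 ± 0.29 for Ly6a, 0.05 ± 0.25 for Slpi, 0.46 ± 0.43 for Duoxa2 and 0.56 ± 0.89 for Saa3. Car1 stood at 5641, 4436 and 3644 TPM at day 6, within or above the uninjured range, and Klk1 at 1575, 1959 and 2248 TPM. They fell between day 6 and day 9 by 1.90 ± 0.27 and 2.28 ± 0.21 (adjusted p = 9.9e-04 and 1.7e-04). S100g was at 26.3, 7.97 and 13.1 TPM at day 6, below every uninjured mouse, and fell further by 2.33 ± 0.50 (adjusted p = 0.0067). Goblet cell genes had 11 of 24 lower at day 9 than at day 6 and 15 of 24 higher at day 14 than at day 9. Muc2 was at 2090.4 ± 870.0 TPM at day 14 (SD, n = 3), 1.09 ± 0.31 above day 9 (adjusted p = 0.043). Car1 was at 1387, 448 and 306 TPM at day 14, below every uninjured mouse. S100g was at 48.4, 20.0 and 79.3 TPM, 3.86 ± 0.55 above day 9 (adjusted p = 0.0044).

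Some B cell, plasma cell and MHC class II genes were higher at day 14 than at day 9. Of 12 B and plasma cell genes tested 7 were higher at day 14 than at day 9, with Cd79a at 9.04 ± 0.82 TPM and Jchain at 225 ± 184 TPM (SD, n = 3). Of 10 MHC class II genes 4 were higher, H2-Aa by 1.47 ± 0.42 (adjusted p = 0.044). None of the 25 interferon-stimulated genes was called in either direction between day 9 and day 14, and Gbp2 was at 31.9, 336 and 452 TPM, again with 1 mouse far below the others. The number of genes called between these days fell to 1078, 1119, 1603 and 1276 when mouse 12, 13, 14 or 16 was left out.

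**Figure D4:**
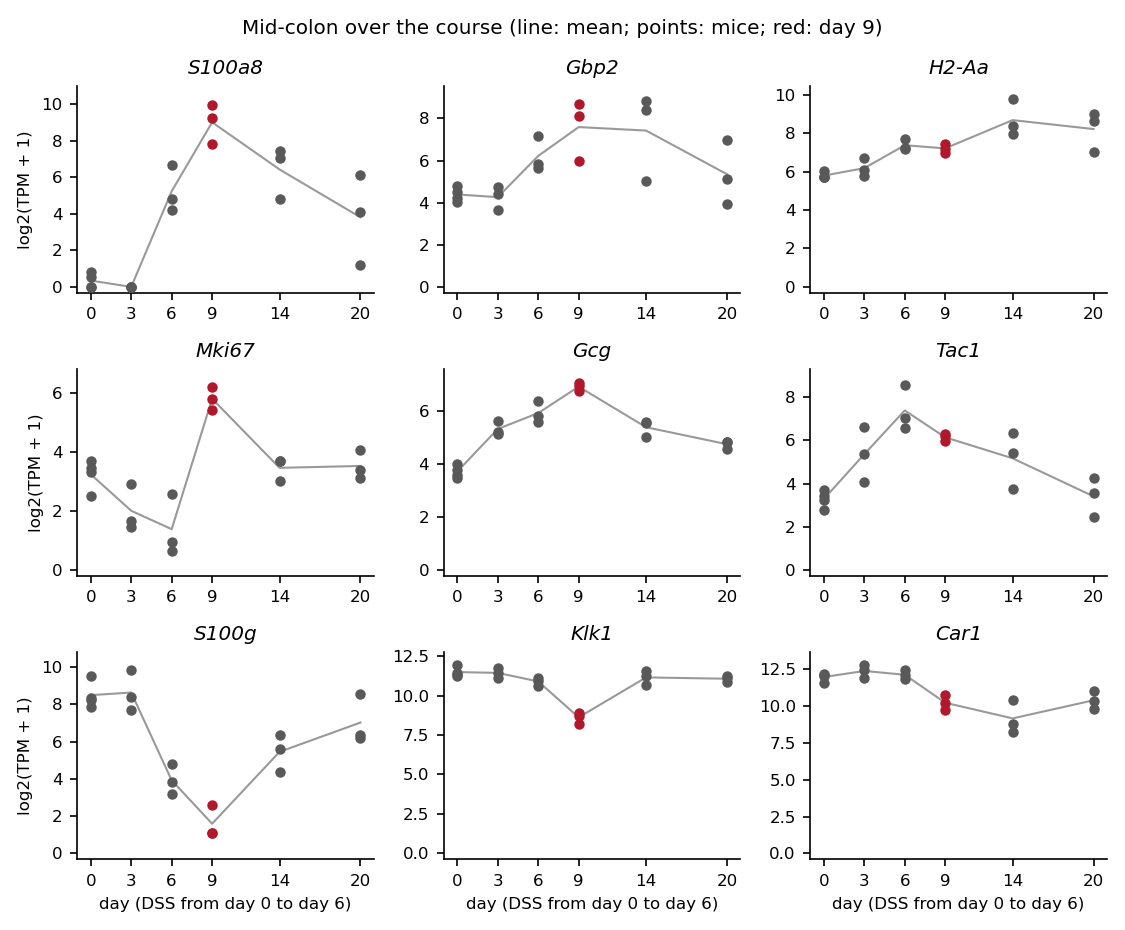
Levels of 9 genes in mid-colon on days 0, 3, 6, 9, 14 and 20, as log2(TPM + 1) against day; points are mice, lines join the means, and day 9 is red. Mki67 is lowest at day 6 and highest at day 9, S100g is lowest at day 9, and Car1 is still low at day 14.

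The rectum of the same 7 mice allowed a test of whether the day 9 response differed between the sections. The difference in response, rectum minus mid-colon, was called for 885 of 13520 genes (6.55%), 790 of them higher in rectum (5.84%) and 95 lower (0.703%). With TMM factors the split was 775 and 422, and with factors from all 66 libraries 821 and 253. Leaving out mouse 13 gave 340 calls, and leaving out mouse 1, 2 or 3 gave 563, 509 or 512. Both sections of a mouse share its number, and a fit blocked on the mouse called 1064 genes. Sections of the same mouse are not independent in the unblocked fit.

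Leukocyte and inflammatory genes rose less in mid-colon than in rectum. The difference was called for 10 of 10 general leukocyte markers, 18 of 20 neutrophil genes, 15 of 19 cytokine genes and 21 of 25 monocyte and macrophage genes, all of them with the higher response in rectum. S100a8 was at 607, 1012 and 226 TPM in mid-colon and 6975, 5487 and 4504 TPM in rectum at day 9, a difference in response of 3.28 ± 0.60 (adjusted p = 0.0042). Il1b was at 51.4, 188 and 26.7 and 326, 1592 and 1603 TPM (4.03 ± 0.81, adjusted p = 0.0073). Under the naming rule Saa3, Ccl4 and Mmp10 had the largest differences. Saa3 was at 75.2, 70.8 and 40.7 and 1524, 3590.5 and 2306 TPM (5.44 ± 0.43, adjusted p = 2.1e-05), and Mmp10, a stromelysin, was at 3.21, 2.26 and 2.06 and 85.4, 84.9 and 70.6 TPM (4.45 ± 0.23, adjusted p = 1.9e-07). For S100a8, Il1b, Saa3 and Mmp10 every rectal sample of day 9 was above every mid-colon sample of day 9. Ccl4, a monocyte and T cell chemokine, differed by 4.52 ± 1.18 (adjusted p = 0.033), but the call was lost when any of mice 1, 2, 3, 4 or 13 was left out.

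Some stromal and injury-associated epithelial genes also had the higher response in rectum. The difference was called, higher in rectum, for 13 of 32 fibroblast and matrix genes (15 with the mouse as a block) and 7 of 28 fetal-like genes (12 with the block), against 5.84% of all genes. Among them were Mmp3 (2.91), Timp1 (2.30), Ereg (1.78) and Il33 (1.48). It was also called for 4 of 15 T and NK cell genes, Gzmb among them (1.94), and for 3 of 12 enteroendocrine genes (5 with the block), with Pyy (0.83) and Insl5 (1.05). None of the 12 mitochondrially encoded genes was called, but 9 were lower in rectum with the block. None of 25 interferon-stimulated, 24 goblet cell or 20 cholesterol synthesis genes, and 1 of 32 cell cycle genes, was called different in response. In the cell cycle list 6 were lower and 1 higher in rectum with the mouse as a block, and 10 were lower with TMM factors. A missed call does not show an equal response: the interferon genes had a median difference of 1.17, higher in rectum. Gcg was at 146, 111 and 139 TPM in the rectum at day 9, with a difference in response of 0.09 ± 0.21 (adjusted p = 0.88). The naming rule gave Cbr3, Gsta3 and Defb45 as the lower responses in rectum. Cbr3, a carbonyl reductase, was at 31.2, 28.2, 23.4 and 18.2 and 24, 19 and 26.7 TPM in mid-colon and at 24, 23.6, 29.4 and 23.6 and 9.18, 7.25 and 7.14 TPM in rectum (-1.46 ± 0.26, adjusted p = 0.0033). Gsta3 (-1.42) and Defb45 (-2.02) also differed, and both calls were lost in several alternatives.

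**Figure D5:**
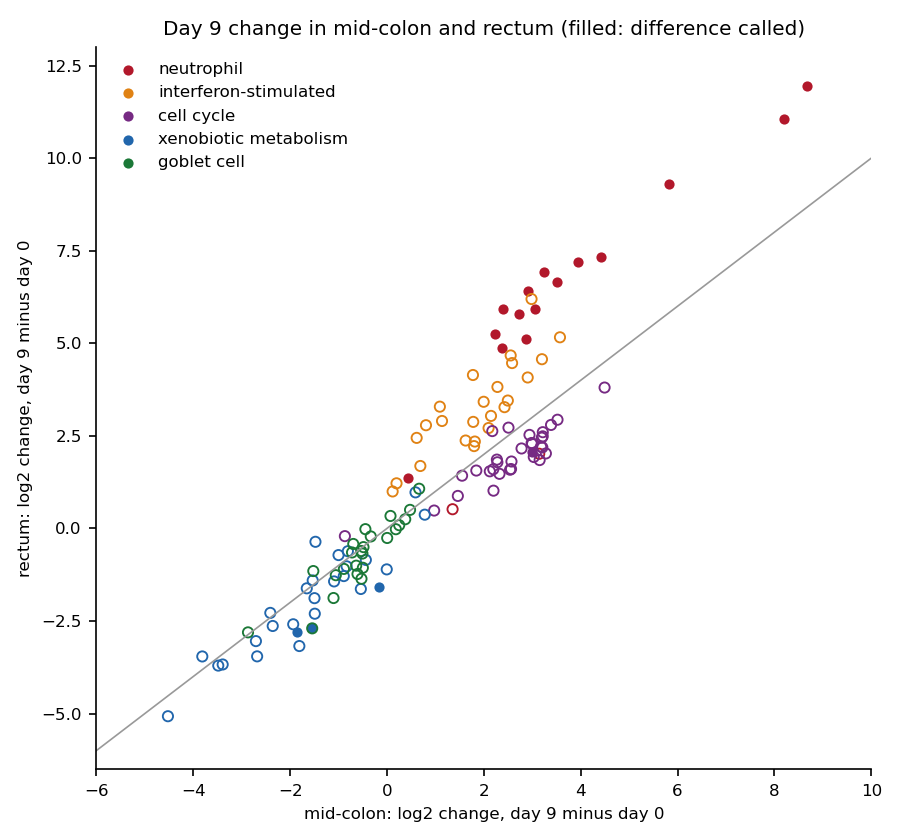
Log2 change from day 0 to day 9 in rectum (vertical) against mid-colon (horizontal) for genes of 5 lists, on the log2(TPM + 1) scale; filled points are genes whose difference in response was called, and the line marks equal change. Genes not tested in mid-colon are not drawn, so 17 of the 20 neutrophil genes appear. The filled neutrophil genes lie above the line, and the cell cycle and goblet cell genes are almost all open.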

How the data were processed

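RNA from 66 mouse samples had been sequenced as single-end 75 base reads from Illumina Stranded mRNA libraries, per the labels. The deposited table holds signal per transcript, which the authors made with CASAVA and kallisto on mm10, per the submitters' processing notes; their versions are not given in the sources used here. After 1318 repeated rows were dropped, every column of deposited values summed to 1000000, so they were read as TPM and summed per gene. Gene values were tested as log2(TPM + 1) with limma 3.58.1 (R 4.3.3, variance trend), Benjamini-Hochberg adjustment over all genes tested, and a minimum of 1 TPM in at least the smaller group's number of samples; an adjusted p below 0.05 was a call. The procedure was tested on simulated data. Tables and figures used Python 3.11.15, numpy 2.4.6, pandas 2.3.3 and matplotlib 3.10.9.

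The comparison, its gene lists and the tests were chosen with earlier results of these data known. Within each list the first gene and up to 2 called rises and 2 called falls were named (mean of at least 8 TPM in the higher group, no overlap), with 8 each way outside the lists, 3 by spread at day 9 (mean of at least 100 TPM) and 3 each way by difference in rectum; 109 genes came from this rule, and other list genes were named after their values were seen. Rectal and mid-colon sections of the same mouse carry its number in the labels and so are paired; their deviations from group means correlated at 0.185 on average over mice (-0.013 to 0.342). Alternatives were other pseudocounts, filters and scalings (TMM), a minimum fold change of 2, a robust prior, a joint fit, the mouse as a block and leaving out each mouse. The depth of each library is unknown, so no counting interval is given. The values of some list genes are not reported here.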

Additional observations from a re-analysis of the deposited data

Results flagged for a closer look

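Among 199 genes checked, 12 had a day 0 mouse whose gap to the nearest other mouse, divided by the range of the 4, passed Dixon's 95% critical value. Chance alone passes about 1 in 20 groups. In 10 of the 12 genes that mouse was mouse 4, the library with low values for long transcripts, whose part in these gaps was not tested. It was low for Sdc1 (77.4 TPM), Hspa5 (195.6 TPM), Ndrg1 (37.7 TPM), Hopx (14.1 TPM), Krt20 (710.0 TPM) and Scnn1a (75.3 TPM), and high for H2-Aa (63.8 TPM), Cd3d (0.593 TPM), Reg3b (0.082 TPM) and Acod1 (0.0162 TPM). The others were Cyp2c55, high in mouse 3 (1363 TPM), and Ndufs1, high in mouse 2 (101.3 TPM).

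For 42 of the 199 genes, against 6.55% of all genes, the day 9 response differed between rectum and mid-colon in the test of that difference, given here as rectum minus mid-colon on the log2(TPM + 1) scale. The count supports nothing further, since Saa3, Ccl4, Mmp10, Defb45, Cbr3 and Gsta3 were named for this difference. Neutrophil genes were higher in rectum, with Retnlg (3.47), Il1r2 (2.92), Mmp8 (3.06), S100a9 (2.86), S100a8 (3.28) and Ly6g (0.94). Cytokine genes were higher too, with Il1b (4.03), Cxcl2 (3.88), Cxcl3 (3.72), Cxcl1 (1.53), Tnf (1.75), Il33 (1.48) and Il1rn (1.78). The genes of macrophages and other leukocytes were Ccl4 (4.52), Acod1 (3.72), Chil3 (2.75), Cd14 (2.60), Ccl8 (1.76), Lyz2 (1.68), C1qa (1.46), C1qb (1.44) and C1qc (1.18). Genes of the epithelial lists with the higher response in rectum were Saa3 (5.44), Lcn2 (3.77), Ereg (1.78), Cd44 (1.16), Emp1 (1.00) and Krt20 (0.71). Socs3 (1.54), which is outside the lists, was higher too. Which cells carried these RNAs was not tested. Matrix proteases, their inhibitor, an adhesion molecule and a granzyme followed with Mmp10 (4.45), Mmp3 (2.91), Timp1 (2.30), Icam1 (2.07) and Gzmb (1.94). The remaining higher responses were Pfkfb3 (1.29), Ndrg1 (1.03), Pyy (0.83) and Insl5 (1.05). Responses lower in rectum were those of Dio1 (-1.04), Defb45 (-2.02), Cbr3 (-1.46) and Gsta3 (-1.42).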

How the results depend on the processing

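No paired analysis was possible because no mouse was in both groups for day 9 against day 0, day 6 or day 14. For the response in rectum, pairing the sections with the mouse as a replicate block gave 1064 genes against 885 without it, and among the genes named for rectum ended the call of Gsta3 (adjusted p = 0.057). Leaving out each mouse in turn gave 4133 to 5991 genes for day 9 against day 0 (2487 to 3506 higher, 1638 to 2867 lower), 3485 to 5511 against day 6, 1078 to 2364 for day 14 against day 9, and 340 to 1187 for the rectal difference. A minimum fold change of 2 gave 2751 genes (1798 higher and 953 lower), 2461 against day 6 and 1522 for day 14. TMM factors from all 66 samples, chosen after seeing the data, gave 3748 lower genes at day 9. With no filter 1538 genes were called at day 14, and with a pseudocount of 0.1 TPM 444 in the rectal difference. The cause was not tested in any of these.

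Of 173 genes followed singly and called at day 9, 28 lost the call in at least 1 alternative and none changed direction. Of 22 not called, 6 were called in some alternative, and 11 changed sign. With TMM factors from all 66 samples the log2 differences were -0.24 for Pecam1, -0.12 for Slc2a1, -0.12 for Il1rn, -0.065 for Irf1, -0.14 for Irf7, -0.19 for Zg16 and -0.026 for Cdx2. TMM factors from the compared samples gave -0.11 for Pecam1, -0.0027 for Irf7 and -0.049 for Zg16, and leaving out mitochondrial genes gave -0.035 for Pecam1. Leaving out each mouse gave -0.16 to 0.33 for Pecam1, -0.13 to 0.057 for Ndufs1, -0.029 to 0.34 for Slc2a1, -0.38 to 0.26 for Cyp2c65, -0.24 to 0.033 for Cbr3, -0.36 to 0.049 for Gsta3, -0.031 to 0.46 for Irf1, -0.15 to 0.53 for Irf7 and -0.20 to 0.32 for Zg16. Limits are the 3 or 4 mice in a group, unknown depth, gradients over transcript length in the libraries of uninjured mice 3 and 4, and a scaling that sets the balance of higher and lower calls.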

Other observations

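Il5ra, the receptor chain for interleukin-5 carried by eosinophils and some B cells, was at 0 to 0.0565 TPM in the 4 uninjured mice. At day 9 it was at 3.2, 14.9 and 6.43 TPM in mice 11, 12 and 13, a difference of 2.95 on the log2(TPM + 1) scale (limma, adjusted p = 0.000151). Of 8 listed eosinophil genes 2 were tested: Il5ra rose and the other was not called. The list summed to 1.03 to 2.32 TPM at day 0 and 6.18 to 16.2 TPM at day 9, Il5ra included. Among the 6 genes not tested, Epx, the eosinophil peroxidase, was at 0 to 0.0577 TPM and Ear1 was listed at 0 in all 7 mice. Il5ra was singled out after its values were seen.

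Of 4 mast cell genes tested 2 rose and 2 were not called, and 1 was called lower without mouse 4 and with TMM factors. The chymase Cma1 rose from 3.36 to 4.71 TPM at day 0 to 8.75, 11.2 and 16.5 TPM at day 9 (limma, adjusted p = 0.00103), and the protease Mcpt2 rose from 0 to 0.673 TPM to 2.76, 1.84 and 2.51 TPM. Kit, the stem cell factor receptor, was at 7.24, 3.05, 3.3 and 1.66 TPM and then 1.33, 0.683 and 2.06 TPM (adjusted p = 0.0515). The high-affinity IgE receptor gene Fcer1a and Ms4a2 stayed below 1 TPM in all 7 mice.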
